A study of Homo sapiens with 10 samples.

Results

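A set of 34 genes of the hypoxia response and of glycolysis was followed in MDA-MB-231 cells, an established human cell line of basal B triple-negative breast cancer, through 48 h of dasatinib, an inhibitor of SRC and ABL family kinases. The genes were taken by symbol from the deposited tables, in which all 34 of 34 were found among 36687 gene rows. Of the 34, 14 are genes known as targets of the hypoxia-inducible factors (HIFs) and 20 are glucose transporters, switches and enzymes of glycolysis. All 34 passed the filter on low counts, as did 15727 genes in all.

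The wild-type cells were collected at 0, 6, 12, 24 and 48 h of dasatinib, with 2 replicate libraries of total RNA at each time and 10 libraries in all. Dasatinib was used at 100 nM. The 0 h group is titled as sham and served as the untreated control, although its treatment field also names dasatinib. Untreated cells kept for 6 to 48 h were not among the libraries, so each difference from 0 h holds the drug and the time in culture together, and these cannot be told apart.

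HIFs are pairs of an oxygen-regulated alpha subunit and a stable beta subunit that bind a short DNA element near their target genes. In oxygenated cells, prolyl hydroxylases mark the alpha subunit for removal by the VHL complex. HIF target genes serve glucose uptake, glycolysis, acid export, blood vessel growth and the removal of mitochondria, and many breast cancer lines express a part of them in normal oxygen.

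The core of the HIF element is shown in the promoters of 4 of these genes, chosen after their values were seen: *CA9* and *ALDOC*, which rose late, and *BNIP3* and *HK2*, which fell at 6 h. Each sequence is the 250 bases before the annotated start in RefSeq (GRCh38.p14), 5′ to 3′ on the strand of the gene, and capitals mark each ACGTG or GCGTG on either strand. The stretches are chr9:35673678-35673927 on the plus strand for *CA9*, chr17:28576896-28577145 on the minus strand for *ALDOC*, chr10:131981924-131982173 on the minus strand for *BNIP3* and chr2:74833877-74834126 on the plus strand for *HK2*.
CA9: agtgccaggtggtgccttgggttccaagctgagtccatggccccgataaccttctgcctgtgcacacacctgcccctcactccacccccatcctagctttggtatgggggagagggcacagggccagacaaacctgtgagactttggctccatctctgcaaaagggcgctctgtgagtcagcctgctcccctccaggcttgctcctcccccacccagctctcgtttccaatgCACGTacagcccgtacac
ALDOC: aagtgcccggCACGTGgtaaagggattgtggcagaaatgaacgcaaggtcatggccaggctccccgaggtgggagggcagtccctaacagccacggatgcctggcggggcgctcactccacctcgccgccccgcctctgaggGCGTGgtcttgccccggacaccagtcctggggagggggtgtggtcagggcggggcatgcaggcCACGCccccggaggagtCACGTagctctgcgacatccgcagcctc
BNIP3: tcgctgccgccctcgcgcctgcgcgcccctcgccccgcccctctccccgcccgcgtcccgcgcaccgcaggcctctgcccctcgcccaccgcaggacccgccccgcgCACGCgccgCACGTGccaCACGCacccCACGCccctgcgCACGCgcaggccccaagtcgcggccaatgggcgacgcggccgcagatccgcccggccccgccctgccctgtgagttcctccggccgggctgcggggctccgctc
HK2: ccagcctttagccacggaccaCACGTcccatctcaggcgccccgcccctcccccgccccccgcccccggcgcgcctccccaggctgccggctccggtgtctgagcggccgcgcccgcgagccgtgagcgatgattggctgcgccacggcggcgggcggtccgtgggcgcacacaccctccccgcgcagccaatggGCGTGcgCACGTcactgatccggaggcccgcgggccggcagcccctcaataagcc
*CA9* held 1 core match, at position −18 from the start, and on the other strand it read TACGTG. *ALDOC* held 5 matches, *BNIP3* 6 and this window of *HK2* 3, where the palindrome CACGTG counts once on each strand. Both the genes that rose late and those that fell at 6 h held the core, and *BNIP3* belongs to both, since it was also higher at 24 and 48 h.

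Across 300-base windows that also take in 50 bases after the start, 29 members were listed with 46 windows, and *VEGFA*, *STC1*, *BNIP3L*, *NDRG1* and *SLC2A3* were not analysed here. At least 1 core match in any window was found for 27 of these 29 members, and the same count by gene over all genes was not made. Of the 46 windows 76.1% held the core, against 48.4% of all 35116 promoter windows of the same length. The longer form TACGTG was in 17.4% of member windows and 3.24% of all windows. The member windows were also richer in CpG, with a median of 30 CpG against 14 over all windows, and these shares are descriptions with no test. The core was in 85.7% of the 14 windows of the 12 listed members higher at 48 h. It was in 71.9% of the 32 windows of the 17 listed members not called at 48 h. Several members have more than 1 window, so these shares do not count genes. By gene, *EGLN3*, higher at 48 h, and *PGAM1*, not called at 48 h, were the only listed members with no core in any window. The 5 members not analysed were all higher at 48 h.

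Library totals were 40942913 to 49133774 counts, and mitochondrially encoded mRNAs made up 4.91% to 7.94% of them, with 7.24% and 6.73% at 48 h and 5.72% and 5.07% at 0 h, a difference whose part in the results was not tested. One library stood apart: 12 h replicate 1 had the 7.94% and correlated at best at 0.978 with any other library over the genes tested on the log2(CPM + 1) scale, against 0.994 to 0.997 for the other libraries. Over the 34 members the 2 libraries of a time differed by a median of 1.19-fold at 12 h and of 1.05-fold to 1.09-fold at the other times. At 12 h 8 members differed by more than 1.5-fold between replicates, among them *ADM* by 2.95-fold, and no member did so at another time. Both 12 h libraries were kept, and counts without them are given beside the main ones, because all groups share 1 estimate of the spread.

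The cells carried the basal B markers of their label, and some luminal markers were expressed too. All 6 basal B markers were expressed in every library, with sums of 2303 and 2307 TPM at 48 h and 3319.9 and 3384 TPM at 0 h, and with vimentin (*VIM*) at 633 to 913 TPM, a unit that scales counts for gene length and library total. Of the luminal markers, the hormone receptor genes were at 0 TPM in 10 libraries (*PGR*) or at most 0.144 TPM (*ESR1*), while *XBP1* was at 132 to 269.8 TPM and the summed luminal list had 377 and 385 TPM at 48 h and 192 and 199 TPM at 0 h, and the part of these differences in the results was not tested either. Haematopoietic markers summed to at most 0.581 TPM per library and endothelial markers to at most 4.07 TPM. In bulk RNA, fewer cells expressing a gene and less RNA per cell cannot be told apart.

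By level, 6 enzymes of lower glycolysis stood far above the other members. Per transcript length, *GAPDH* was the most abundant member at 0 h with 5907 and 5929 TPM, followed by *ENO1* with 2563 and 2699 TPM. *TPI1*, *PGAM1*, *PKM* and *LDHA* were between 1421 and 1915 TPM at 0 h. The hypoxia-inducible members were lower, and the highest of them at 0 h was *BNIP3* with 121 and 129 TPM. The 15 enzymes together summed to 15878 and 16619 TPM at 0 h, 14503 and 15153 after 6 h, 14371 and 15511 after 12 h, 15957 and 15635 after 24 h, and 17338 and 17211 after 48 h. Both 48 h sums lay above both 0 h sums and both 6 h sums lay below them, and no test was made on these sums. The TPM scale itself set the median gene 0.07 higher at 48 h on the log2 scale (limma on log2(TPM + 1)) than the test of TMM-scaled counts did. The part of this shift in the enzyme sums was not tested.

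The summed hypoxia-inducible members moved further. The 14 genes summed to 433 and 443 TPM at 0 h, 504 and 487 after 6 h, 536 and 547 after 12 h, 766 and 806 after 24 h, and 1345 and 1361 after 48 h. The replicate values of any 2 of these 5 times did not overlap. The 6 h sum rests on *STC1*, without which it was 397 and 381 TPM after 6 h, below the 415 and 422 TPM at 0 h. Without *NDRG1*, the member with the largest gain, the sum was 890.4 and 939.9 TPM at 48 h and 378 and 384 TPM at 0 h. A list of 10 proliferation genes moved the opposite way late, with 2517 and 2541 TPM at 0 h, 2758 and 2601 after 6 h, 2787 and 2627 after 12 h, 1687 and 1741 after 24 h, and 1010 and 1082 after 48 h. Of these 10 genes, 7 were lower at 24 h and 10 at 48 h, and their part in the changes of the 34 members was not tested.

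**Figure D1:**
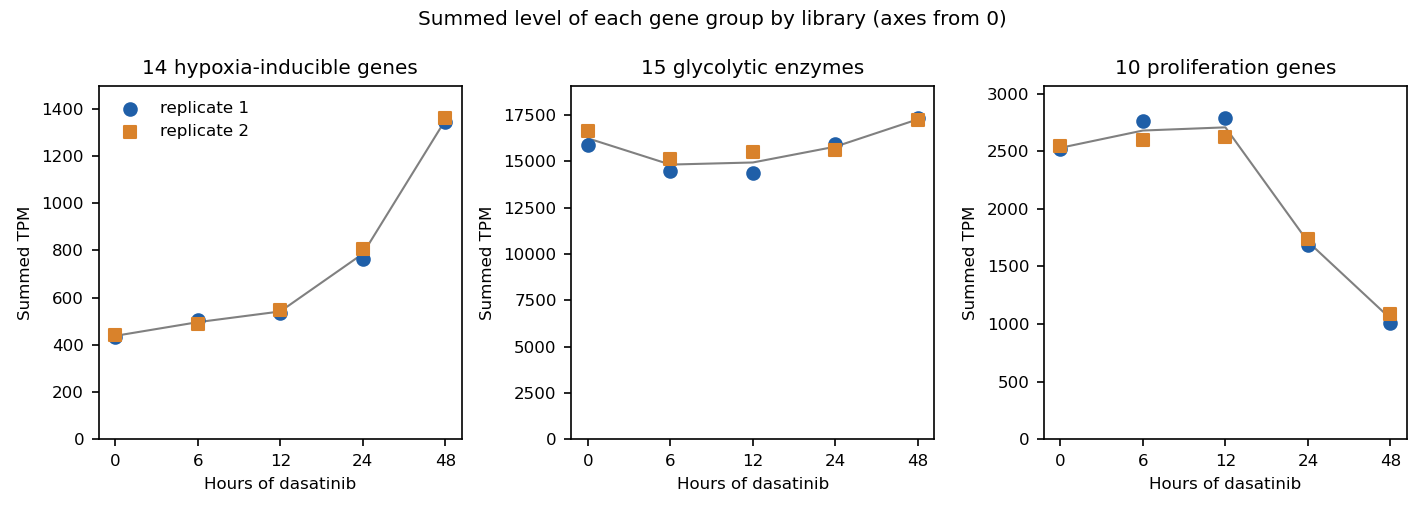
Summed TPM of 14 hypoxia-inducible genes, 15 glycolytic enzymes and 10 proliferation genes in each library, against hours of dasatinib, with circles for replicate 1, squares for replicate 2 and a line through the mean. The hypoxia-inducible sum was 1345 and 1361 TPM at 48 h and 433 and 443 TPM at 0 h, while the enzyme sum stayed between 14371 and 17338 TPM.

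After 6 h of dasatinib few of the 34 genes passed the threshold in the fit of all libraries, and those that did went in both directions. At an adjusted p under 0.05 from edgeR (Benjamini-Hochberg over all genes tested), which is meant wherever a gene passed, rose or fell, 3 members were higher than at 0 h (*STC1*, *SLC2A3* and *CA12*) and 2 were lower (*HK2* and *BNIP3*). Of all genes tested, 1.24% were higher and 1.49% lower in this comparison. The median log2 fold change of the members was −0.03, against 0.01 over all genes. Without both 12 h libraries, 8 were higher and 7 lower, against 10.4% and 10.3% of all genes in that fit. The 3 and 2 were among them, and *EGLN3*, *CA9*, *VEGFA*, *PFKFB4* and *ALDOC* joined the higher genes and *BNIP3L*, *SLC2A1*, *PDK1*, *PGAM1* and *LDHA* the lower ones.

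At 12 h 5 members were higher (*EGLN3*, *CA12*, *VEGFA*, *STC1* and *SLC2A3*) and 1, *HK2*, was lower, against 3.93% and 3.22% of all genes. These counts rest on libraries that differ. Without 12 h replicate 1 they were 9 and 4, against 8.26% and 8.61% of all genes, and without 12 h replicate 2 they were 9 and 13, against 20.1% and 24.8%. The 5 and the 1 remained in both. Of all genes called at 12 h 55.0% were higher, and 63.6% to 67.4% with limma on log2 TPM. With edgeR on the 0 h and 12 h libraries alone 0 of all genes passed, and so no member did in either direction. At an unadjusted p under 0.05, 6 members were higher and 2 lower in that fit.

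By 24 h the balance had turned to higher expression. There were 13 higher and 2 lower members (*HK2* and *PGAM1*), against 9.73% and 10.2% of all genes, and the median was 0.26, with 0.02 over all genes. The 13 were 9 hypoxia-inducible genes (*EGLN3*, *KDM4B*, *CA9*, *CA12*, *VEGFA*, *STC1*, *BNIP3*, *BNIP3L* and *NDRG1*) and 4 glycolysis genes (*SLC2A3*, *PFKFB4*, *PFKL* and *ALDOC*). Without both 12 h libraries 18 were higher and 5 lower, against 20.9% and 22.3% of all genes. In that fit *KDM3A*, *ANKRD37*, *PDK1*, *PGK1* and *ENO2* joined the higher genes and *SLC2A1*, *HK1* and *ENO1* the lower ones.

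At 48 h 17 of the 34 members were higher than at 0 h and 0 were lower, against 16% and 16.3% of all genes. The median was 0.71, and 0.01 over all genes. At an unadjusted p under 0.05, edgeR gave 21 higher and 0 lower, and DESeq2 gave 18 and 0 at an adjusted p under 0.05. Without both 12 h libraries 21 were higher and 2, *GPI* and *PGAM1*, were lower, against 26.4% and 27.9% of all genes. The hypoxia-inducible genes made up 10 of the 17, and all 14 of them had positive log2 fold changes at 24 and 48 h (median 1.12 at 48 h). Of the 20 glycolysis genes 7 were higher at 48 h (median 0.17).

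The direct comparison of late with early cells shows how far the members moved between these times. At 48 h 19 members were higher than at 6 h and 2, *CA12* and *STC1*, were lower, against 16.2% and 17% of all genes. The median log2 difference was 0.59, with 0.01 over all genes. Without both 12 h libraries 22 were higher and 3 lower, against 26.3% and 27.9% of all genes. The log2 fold changes against 0 h were negative at 6 h and positive at 48 h for 14 members, positive at both times for 15 and negative at both for 5, and no member went the other way. These are signs alone, and the same count over all genes was not made. Of all genes 8059 were positive and 7655 negative at 6 h. Among the 14, *BNIP3* alone passed at 6 h, while *EGLN1*, *KDM4B*, *PFKP*, *TPI1*, *PGK1* and *ENO1* lay between −0.07 and −0.03 at that time. The 6 h and 48 h comparisons share the 0 h libraries. By calls at these 2 times, *STC1* and *SLC2A3* were higher at both times, *BNIP3* was lower at 6 h and higher at 48 h, *CA12* was higher at 6 h only and *HK2* lower at 6 h only, 14 members were higher at 48 h only, and 15 passed at neither time.

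**Figure D2:**
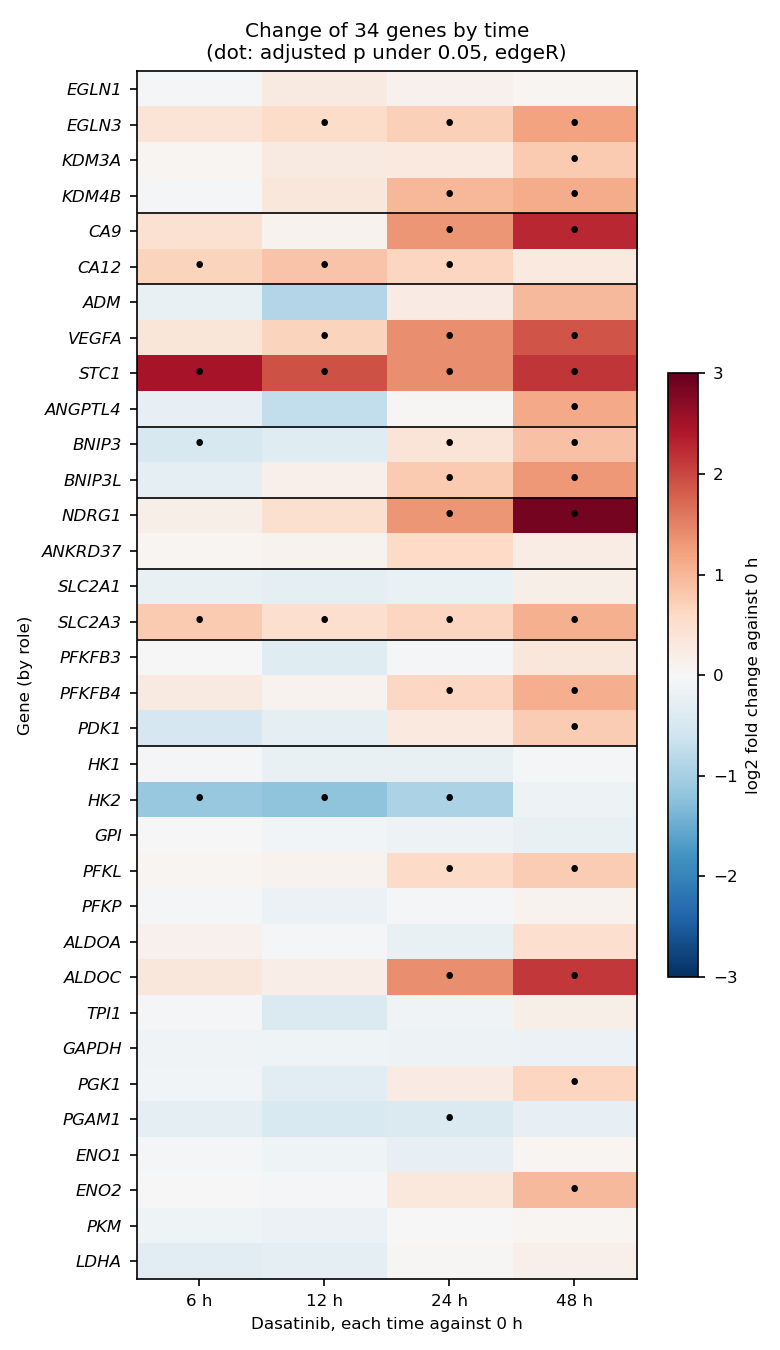
Log2 fold change of the 34 genes at 6, 12, 24 and 48 h of dasatinib against 0 h, with genes as rows in order of their roles, red for higher and blue for lower. A dot marks an adjusted p under 0.05 from edgeR; 3 of 34 genes were higher at 6 h and 17 at 48 h.

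*EGLN3* encodes a prolyl hydroxylase that acts on HIF alpha subunits and is itself induced by them. Levels across libraries are given in CPM, counts scaled to the library total with TMM factors, with replicate 1 before replicate 2. *EGLN3* had 18.2 and 14.9 CPM at 0 h, 21.1 and 22.9 after 6 h, 26.0 and 22.8 after 12 h, 28.0 and 26.8 after 24 h, and 37.4 and 38.7 after 48 h. Every treated library lay above both 0 h libraries, and the 48 h libraries were highest. *EGLN3* had a log2 fold change of 0.41 (SE 0.14, adjusted p = 0.193) at 6 h, 0.56 at 12 h, 0.73 at 24 h and 1.20 (SE 0.14, adjusted p = 0.000176) at 48 h, and it passed from 12 h on. Its paralogue *EGLN1*, the main oxygen sensor in most cells, did not pass at any time, with 24.1 ± 3.73 CPM at 48 h and 23.0 ± 4.98 CPM at 0 h (± SD, n = 2 each).

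The pair of HIF-induced histone demethylases in the set also rose late. *KDM4B* had 59.2 and 54.8 CPM at 0 h, 51.9 and 57.3 after 6 h, 74.8 and 70.4 after 12 h, 118 and 111 after 24 h, and 130.0 and 116 after 48 h. The 6 h libraries overlapped those of 0 h, and both 24 h and both 48 h libraries had at least 111 CPM. *KDM4B* had a log2 fold change of 1.00 (SE 0.11, adjusted p = 0.000329) at 24 h and 1.11 (SE 0.11, adjusted p = 7.31e-05) at 48 h. *KDM3A* averaged 108 ± 5.57 CPM at 48 h and 63.0 ± 1.71 CPM at 0 h (± SD, n = 2 each). In the fit of all libraries *KDM3A* rose at 48 h alone, by 0.78 (SE 0.14, adjusted p = 0.00191) on the log2 scale. It also passed as higher at 24 h without both 12 h libraries.

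The membrane carbonic anhydrases, which handle the acid that glycolysis produces, followed different courses. *CA9*, a widely used marker of hypoxic tumour cells, had 7.85 and 8.85 CPM at 0 h, 11.1 and 11.9 after 6 h, 6.54 and 11.3 after 12 h, 18.8 and 23.3 after 24 h, and 38.7 and 41.0 after 48 h. Its 48 h libraries stood highest, and at 12 h replicate 1 fell below the 0 h libraries while replicate 2 lay above them. *CA9* rose by 1.33 (SE 0.23, adjusted p = 0.00316) on the log2 scale at 24 h and by 2.25 (SE 0.24, adjusted p = 8.43e-05) at 48 h, which is 4.76-fold. *CA12* had 25.2 and 28.9 CPM at 0 h, 42.1 and 44.5 after 6 h, 50.5 and 47.9 after 12 h, 40.5 and 43.9 after 24 h, and 31.8 and 34.04 after 48 h. All treated libraries lay above the 0 h libraries, with the highest values at 12 h and lower ones at 48 h than at 6 h. *CA12* rose by 0.68 (SE 0.12, adjusted p = 0.0188) at 6 h and was not past the threshold at 48 h (0.28, SE 0.12, adjusted p = 0.108). The log2 difference between 48 h and 6 h was −0.40 (SE 0.12, adjusted p = 0.0325) for *CA12* and 1.79 (SE 0.23, adjusted p = 0.000269) for *CA9*. The *CA12* calls at 6 h and at 48 h against 6 h held in 10 and 9 of 19 alternative analyses, with adjusted p up to 0.237 and 0.185.

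Among the secreted products, *STC1* had the largest change at 6 h and at 48 h. *STC1*, which encodes the glycoprotein hormone stanniocalcin-1, had 22.1 and 24.8 CPM at 0 h, 128 and 133 after 6 h, 95.3 and 81.9 after 12 h, 61.0 and 61.5 after 24 h, and 107 and 100.1 after 48 h. Every treated library was at least 61.0 CPM, above both 0 h libraries, and the 6 h and 48 h libraries stood above those of 24 h. *STC1* rose by 2.48 (SE 0.12, adjusted p = 1.53e-05) on the log2 scale at 6 h, 1.92 at 12 h, 1.39 at 24 h and 2.14 (SE 0.12, adjusted p = 3.97e-06) at 48 h. At 48 h it was lower than at 6 h, with a log2 difference of −0.33 (SE 0.12, adjusted p = 0.0485), a call that held in 4 of 19 alternatives with adjusted p up to 0.251.

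*VEGFA*, the main growth factor of blood vessels, climbed in steps. *VEGFA* had 67.2 and 69.3 CPM at 0 h, 89.5 and 84.9 after 6 h, 89.5 and 126 after 12 h, 175 and 181 after 24 h, and 247 and 257 after 48 h. Each treated library lay above both 0 h libraries. The 24 h and 48 h libraries lay above all earlier ones. *VEGFA* had a log2 fold change of 0.35 (SE 0.15, adjusted p = 0.278) at 6 h, 0.66 (SE 0.15, adjusted p = 0.0268) at 12 h, 1.38 (SE 0.15, adjusted p = 0.000271) at 24 h and 1.88 (SE 0.15, adjusted p = 1.81e-05) at 48 h. The last is 3.69-fold.

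*ANGPTL4*, a secreted inhibitor of lipoprotein lipase, and *ADM*, the precursor of the vasodilator peptide adrenomedullin, had low values early and high values late. *ANGPTL4* had 17.3 and 16.2 CPM at 0 h, 14.9 and 13.5 after 6 h, 7.99 and 12.0 after 12 h, 14.9 and 19.6 after 24 h, and 34.9 and 38.4 after 48 h. Both 6 h and both 12 h libraries lay below the 0 h libraries and both 48 h libraries above them. *ANGPTL4* rose at 48 h by 1.13 (SE 0.20, adjusted p = 0.00204) against 0 h and by 1.37 (SE 0.21, adjusted p = 0.000665) against 6 h. *ADM* had 23.9 and 24.5 CPM at 0 h, 19.8 and 21.7 after 6 h, 6.71 and 19.8 after 12 h, 28.4 and 28.9 after 24 h, and 45.0 and 49.6 after 48 h. The 12 h replicates differed by 2.95-fold, and both 48 h libraries were highest. *ADM* did not pass at 48 h against 0 h (0.96, SE 0.35, adjusted p = 0.0617), and it was higher at 48 h than at 6 h by 1.19 (SE 0.36, adjusted p = 0.0271), a call that held in 12 of 19 alternatives with adjusted p up to 0.148. Without both 12 h libraries its 48 h difference from 0 h passed (adjusted p = 3.05e-08), as it did without 12 h replicate 1 alone (adjusted p = 1.01e-08) or 12 h replicate 2 alone (adjusted p = 8.25e-09).

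*BNIP3* and *BNIP3L* encode receptors in the outer mitochondrial membrane that mark mitochondria for autophagy. *BNIP3* had 190.2 and 199 CPM at 0 h, 139 and 140.3 after 6 h, 139 and 163 after 12 h, 256 and 252 after 24 h, and 355 and 359 after 48 h. All 4 libraries of 6 and 12 h lay below the 0 h libraries, and all 4 of 24 and 48 h lay above them. *BNIP3* fell at 6 h, with a log2 fold change of −0.48 (SE 0.11, adjusted p = 0.0483), and rose at 24 h by 0.38 (SE 0.11, adjusted p = 0.0315) and at 48 h by 0.87 (SE 0.11, adjusted p = 0.000216). In the fit of all libraries it was the only member that passed in opposite directions at 6 and 48 h. *BNIP3L* (adjusted p = 0.015 at 6 h) and *PDK1* did so as well without both 12 h libraries, and DESeq2 also called *PDK1* lower at 6 h. The 6 h call of *BNIP3* held in 10 of 19 alternatives with adjusted p up to 0.359. At 48 h against 6 h it was higher by 1.35 (SE 0.11, adjusted p = 2e-05).

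*BNIP3L* had 91.7 and 84.3 CPM at 0 h, 74.8 and 71.2 after 6 h, 100.3 and 94.4 after 12 h, 160.4 and 144 after 24 h, and 218 and 214 after 48 h. Its 6 h libraries lay below and its 24 and 48 h libraries above those of 0 h. *BNIP3L* had a log2 fold change of −0.27 (SE 0.11, adjusted p = 0.257) at 6 h, which did not pass, 0.79 (SE 0.11, adjusted p = 0.000884) at 24 h and 1.29 (SE 0.11, adjusted p = 2.39e-05) at 48 h. The counts on processed copies of *BNIP3* were at most 0.901% of its own.

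*NDRG1*, a stress-responsive gene and a sensitive HIF target in many cell types, had the largest late change of the 34. *NDRG1* had 158 and 169 CPM at 0 h, 178 and 192 after 6 h, 206 and 250.3 after 12 h, 415 and 398 after 24 h, and 1267 and 1128 after 48 h. The libraries of each time lay above all those of earlier times. *NDRG1* had a log2 fold change of 0.18 (SE 0.13, adjusted p = 0.574) at 6 h, 0.48 (SE 0.13, adjusted p = 0.0529) at 12 h, 1.31 (SE 0.13, adjusted p = 0.000189) at 24 h and 2.87 (SE 0.14, adjusted p = 3.46e-06) at 48 h, or 7.32-fold. It passed at 24 and 48 h. *ANKRD37*, a small HIF target of ankyrin repeats, stayed at 3.65 to 7.14 CPM in all libraries and did not pass at any time (log2 fold change at 48 h 0.22, SE 0.28, adjusted p = 0.592), but passed as higher at 24 h without both 12 h libraries.

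**Figure D3:**
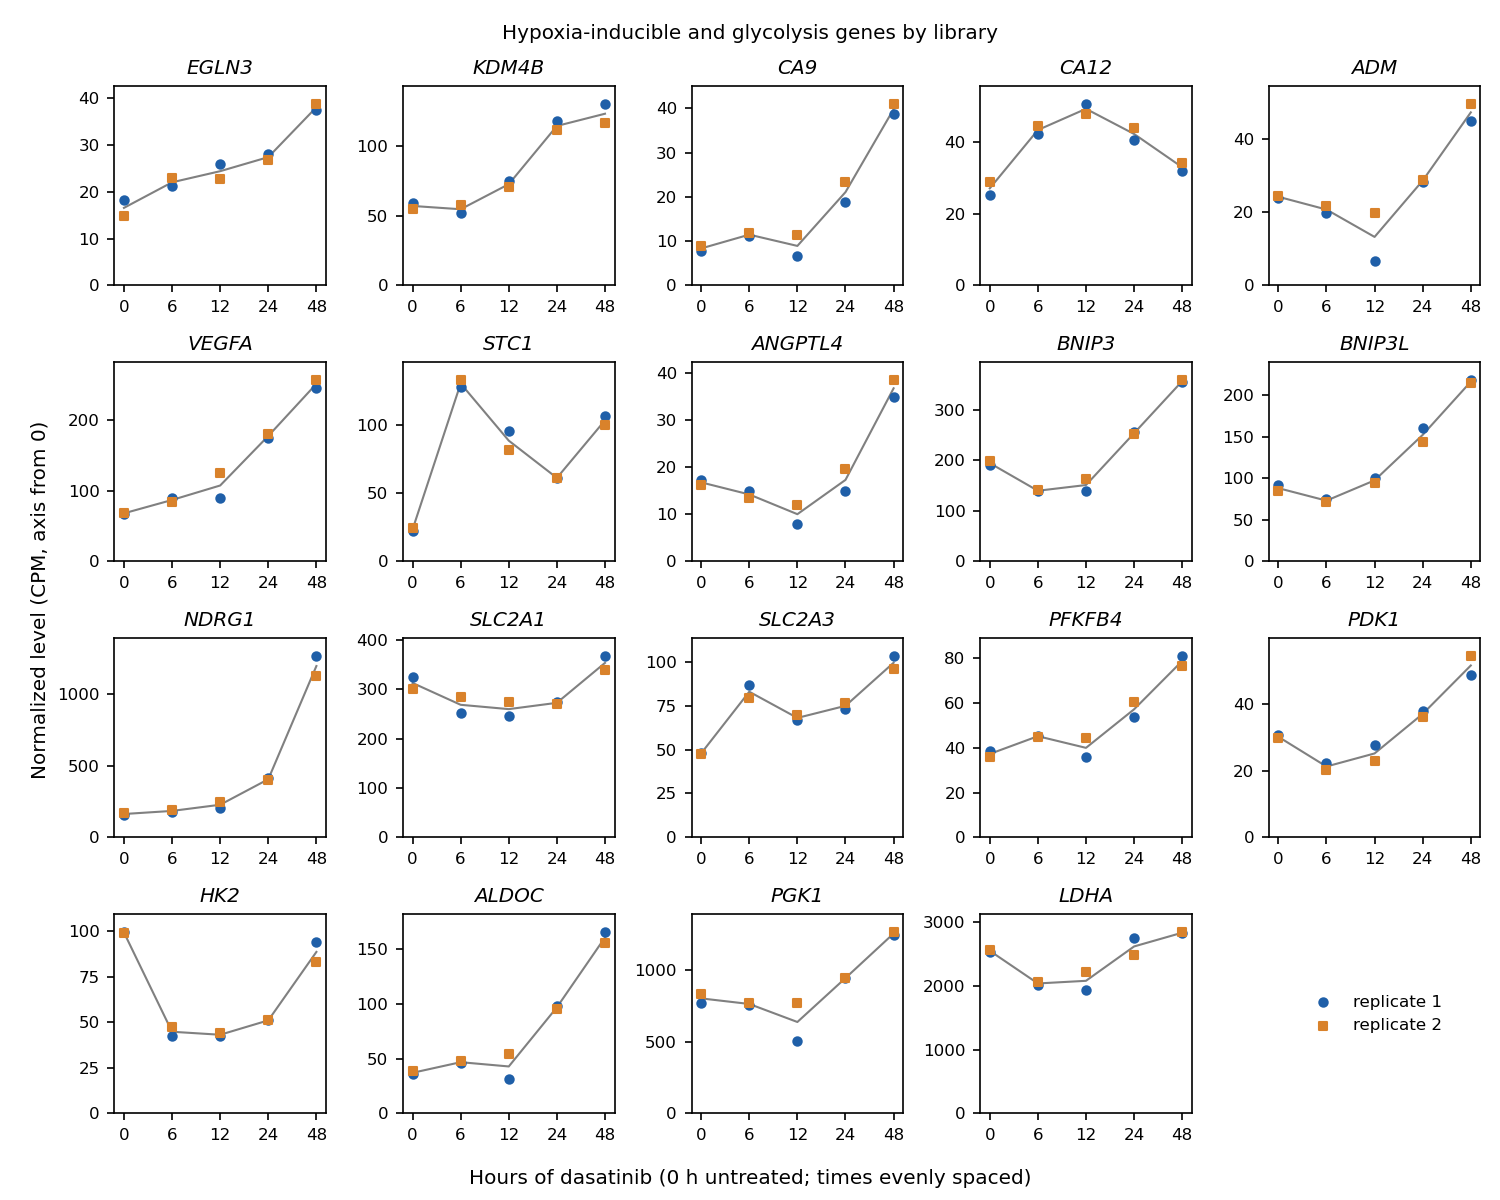
Normalized level in CPM of 19 of the 34 genes in each of 10 libraries, against hours of dasatinib (0 h untreated, times evenly spaced), with circles for replicate 1, squares for replicate 2 and lines through the means. *NDRG1* reached 1267 and 1128 CPM at 48 h, *STC1* was highest at 6 h with 128 and 133 CPM, and *HK2* was lowest at 6 and 12 h.

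Glucose enters these cells through facilitative transporters, and the pair in the set differed. *SLC2A3*, a transporter with high affinity for glucose, had 48.2 and 47.5 CPM at 0 h, 86.7 and 79.1 after 6 h, 66.5 and 69.5 after 12 h, 73.2 and 76.5 after 24 h, and 103 and 95.6 after 48 h. All treated libraries lay above both 0 h libraries, and those of 48 h were highest. *SLC2A3* rose by 0.79 (SE 0.11, adjusted p = 0.00424) at 6 h and by 1.06 (SE 0.11, adjusted p = 6.79e-05) at 48 h on the log2 scale, and the 6 h call held in 16 of 19 alternatives with adjusted p up to 0.0768. *SLC2A14* is a near-identical copy of this gene, so reads could be split between them. *SLC2A1*, the transporter of most proliferating cells, had 324 and 302 CPM at 0 h, 252 and 285 after 6 h, 246 and 274 after 12 h, 275 and 271 after 24 h, and 367 and 339.8 after 48 h. Its 6, 12 and 24 h libraries lay below and its 48 h libraries above those of 0 h, but no time passed against 0 h. The log2 fold change of *SLC2A1* was −0.22 (SE 0.12, adjusted p = 0.405) at 6 h and 0.18 (SE 0.12, adjusted p = 0.275) at 48 h. *SLC2A1* was higher at 48 h than at 6 h by 0.40 (SE 0.12, adjusted p = 0.0237), a call that held in 13 of 19 alternatives with adjusted p up to 0.218. It passed as lower at 6 h and at 24 h without both 12 h libraries.

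The switches of the pathway set how much sugar goes into glycolysis and how much pyruvate leaves it for mitochondria. *PFKFB4* and *PFKFB3* encode bifunctional enzymes that make and break the activator of phosphofructokinase. *PFKFB4* had 38.7 and 35.9 CPM at 0 h, 45.4 and 45.1 after 6 h, 35.8 and 44.3 after 12 h, 53.9 and 60.6 after 24 h, and 81.0 and 76.7 after 48 h. The 24 and 48 h libraries lay above all others. *PFKFB4* rose by 0.62 (SE 0.13, adjusted p = 0.0087) at 24 h and by 1.08 (SE 0.13, adjusted p = 0.000202) at 48 h on the log2 scale. *PFKFB3* did not pass at any time, with 127 ± 0.986 CPM at 48 h and 101 ± 11.9 CPM at 0 h (± SD, n = 2 each), but passed as higher at 48 h without both 12 h libraries (adjusted p = 0.00111).

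*PDK1* encodes a kinase that inhibits pyruvate dehydrogenase. *PDK1* had 30.6 and 29.6 CPM at 0 h, 22.2 and 20.2 after 6 h, 27.5 and 22.7 after 12 h, 37.8 and 36.1 after 24 h, and 48.6 and 54.2 after 48 h. All 6 and 12 h libraries lay below the 0 h libraries and all 24 and 48 h libraries above them. *PDK1* had a log2 fold change of −0.50 (SE 0.14, adjusted p = 0.0929) at 6 h, which passed without both 12 h libraries (adjusted p = 0.000931), and *PDK1* rose by 0.77 (SE 0.14, adjusted p = 0.00176) at 48 h. At 48 h against 6 h it was higher by 1.28 (SE 0.14, adjusted p = 9.17e-05).

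Of the 15 enzymes of glycolysis, 4 were higher at 48 h than at 0 h and 0 were lower with edgeR, beside 16% and 16.3% of all genes. At an unadjusted p under 0.05 these counts were 5 and 0, and with DESeq2 4 and 0. Without both 12 h libraries they were 5 and 2, against 26.4% and 27.9% of all genes. Hexokinases trap glucose in the cell, and *HK2*, the isozyme that tumours often induce, fell within 6 h. *HK2* had 99.5 and 99.1 CPM at 0 h, 42.2 and 47.4 after 6 h, 42.3 and 44.0 after 12 h, 51.1 and 51.0 after 24 h, and 94.1 and 83.2 after 48 h. The 6 and 12 h libraries were below 48 CPM and did not overlap with those of 0 h, and the 48 h libraries lay between those of 24 h and those of 0 h. *HK2* had a log2 fold change of −1.15 (SE 0.11, adjusted p = 0.000795) at 6 h, −1.20 (SE 0.11, adjusted p = 0.000427) at 12 h and −0.96 (SE 0.11, adjusted p = 0.000407) at 24 h. At 48 h it was −0.16 (SE 0.11, adjusted p = 0.298) and did not pass, and *HK2* was higher at 48 h than at 6 h by 0.98 (SE 0.11, adjusted p = 0.000136). The 6 h call held in all 19 alternatives. The constitutive isozyme *HK1*, with 168 and 176 TPM at 0 h against 57.0 and 57.7 TPM for *HK2*, did not pass at any time (log2 fold change at 48 h −0.05, SE 0.12, adjusted p = 0.775).

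Of the isozymes best known from particular tissues, *ALDOC*, *ENO2* and *PFKL* rose late. *ALDOC*, the fructose-bisphosphate aldolase of brain, had 35.6 and 38.4 CPM at 0 h, 45.9 and 47.5 after 6 h, 31.5 and 54.1 after 12 h, 98.1 and 95.2 after 24 h, and 165 and 155 after 48 h. The 24 and 48 h libraries lay above all earlier ones, and the 12 h replicates lay on either side of the 0 h libraries. *ALDOC* rose by 1.39 (SE 0.20, adjusted p = 0.00134) at 24 h and by 2.12 (SE 0.21, adjusted p = 5.44e-05) at 48 h on the log2 scale, which is 4.33-fold. Per length it had 223 and 218 TPM at 48 h, against 46.2 and 50.7 TPM at 0 h. *ENO2*, the enolase of neurons, averaged 288 ± 4.37 CPM at 48 h and 147 ± 10.9 CPM at 0 h (± SD, n = 2 each) and rose at 48 h by 0.97 (SE 0.21, adjusted p = 0.00613). *PFKL*, the liver-type phosphofructokinase, averaged 230.1 ± 22.0 CPM at 48 h and 135 ± 8.63 CPM at 0 h (± SD, n = 2 each) and rose at 24 h (log2 fold change 0.58) and 48 h (0.77, SE 0.12, adjusted p = 0.00107). The isozymes with the higher TPM at these steps, *ENO1* and *PFKP*, did not pass at any time in the fit of all libraries, while *ENO1*, like *HK1*, passed as lower at 24 h without both 12 h libraries. The 48 h log2 fold change was 0.06 (SE 0.14, adjusted p = 0.764) for *ENO1* and 0.11 (SE 0.11, adjusted p = 0.512) for *PFKP*, with 262 and 248 TPM of *PFKP* at 48 h beside 96.9 and 88.2 TPM of *PFKL*.

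*ALDOA*, the major aldolase of most cells, was at only 4.41 to 8.28 TPM here and did not pass at any time (log2 fold change at 48 h 0.49, SE 0.20, adjusted p = 0.082), but passed as higher at 48 h without both 12 h libraries (adjusted p = 0.0207). In RefSeq its gene (chromosome 16, 30064279 to 30070420, GRCh38.p14) overlaps the model LOC112694756 over 6136 bases. How reads in the overlap were counted was not stated in the sources at hand, so the values of *ALDOA* are uncertain.

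*PGK1*, which makes ATP in the lower part of the pathway, had 767 and 833 CPM at 0 h, 755 and 767 after 6 h, 502 and 769 after 12 h, 939 and 944 after 24 h, and 1241 and 1261 after 48 h. Its 24 and 48 h libraries lay above all others, and 12 h replicate 1 lay below all others. *PGK1* rose at 48 h by 0.65 (SE 0.18, adjusted p = 0.0178), a call that held in 15 of 19 alternatives with adjusted p up to 0.137, and it was higher at 48 h than at 6 h by 0.72 (SE 0.18, adjusted p = 0.0104). *LDHA*, which turns pyruvate into lactate, had 2529.9 and 2565 CPM at 0 h, 2015 and 2057 after 6 h, 1940.2 and 2214 after 12 h, 2745 and 2486 after 24 h, and 2822 and 2839.8 after 48 h. Its 6 and 12 h libraries lay below and its 48 h libraries above those of 0 h, with no time past the threshold against 0 h. The log2 fold change of *LDHA* was −0.32 (SE 0.13, adjusted p = 0.245) at 6 h and 0.15 (SE 0.13, adjusted p = 0.392) at 48 h. *LDHA* was higher at 48 h than at 6 h by 0.48 (SE 0.13, adjusted p = 0.0153), and its 6 h difference passed without both 12 h libraries (adjusted p = 0.00332).

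Of the remaining enzymes (*GAPDH*, *PGAM1*, *GPI*, *TPI1* and *PKM*), *PGAM1* alone passed at any time. *GAPDH* averaged 3672 ± 252 CPM at 48 h and 4148 ± 34.2 CPM at 0 h (± SD, n = 2 each), and its log2 fold change of −0.18 (SE 0.13, adjusted p = 0.328) did not pass. The *GAPDH* log2 fold changes lay between −0.18 and −0.11 at the 4 times. *PGAM1* fell at 24 h, with a log2 fold change of −0.44 (SE 0.13, adjusted p = 0.0399), with 912 ± 11.7 CPM at 24 h and 1238 ± 19.7 CPM at 0 h (± SD, n = 2 each), and did not pass at 48 h (−0.24). The 24 h call was lost with the replicate number as a block, and without both 12 h libraries *PGAM1* passed as lower at 6, 24 and 48 h. *GPI*, *TPI1* and *PKM* did not pass at any time, with 48 h log2 fold changes of −0.22, 0.17 and 0.05. *GPI* passed as lower at 48 h without both 12 h libraries. *TPI1* differed between the 12 h replicates, with 625 and 1395 CPM.

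**Figure D4:**
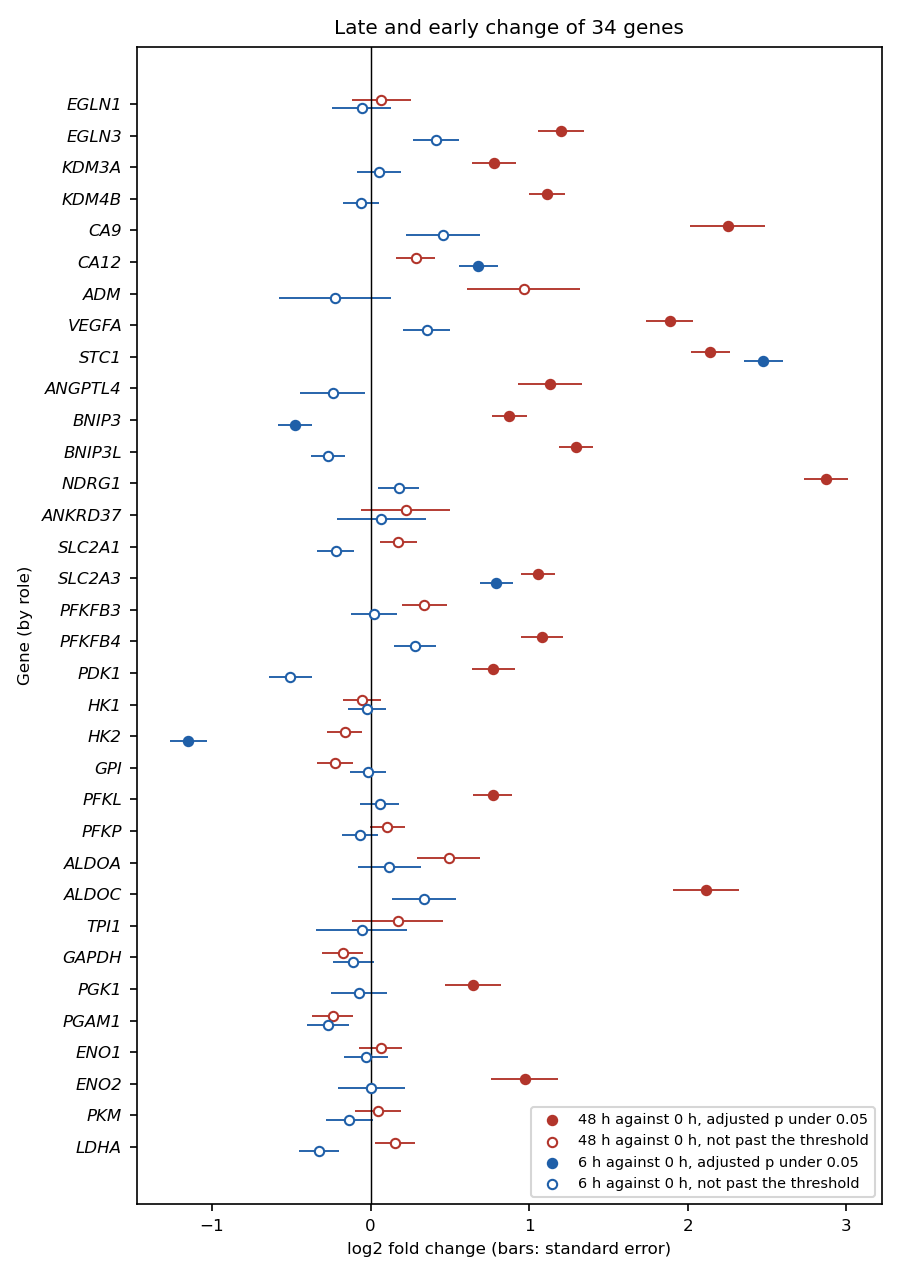
Log2 fold change of each of the 34 genes at 48 h (red) and at 6 h (blue) of dasatinib against 0 h, with bars for the standard error and filled points for an adjusted p under 0.05 from edgeR. 14 genes had a negative point at 6 h and a positive one at 48 h, and none the reverse, but of these 14 only *BNIP3* passed at 6 h.

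Other genes of the HIF system were counted from fixed lists. The HIF machinery list holds the HIF subunits, the VHL complex and cofactors, and 14 of its 15 genes were tested. Of these, 2 were higher and 1 lower at 48 h, beside 16% and 16.3% of all genes, a higher count near that share. At 48 h *EPAS1*, the gene of HIF-2alpha, rose by 1.70 (SE 0.13, adjusted p = 1.39e-05), with 120.4 ± 3.62 CPM at 48 h and 36.9 ± 5.59 CPM at 0 h (± SD, n = 2 each). *ARNT2*, a beta subunit best known from neurons, rose by 1.66 (SE 0.17, adjusted p = 8.68e-05). *ELOC*, a part of the VHL complex, fell, with a log2 fold change of −0.58 (SE 0.16, adjusted p = 0.0199). At 6 h 0 of the 14 passed with edgeR, where 1 was higher and 1 lower at an unadjusted p under 0.05, and DESeq2 gave 0 higher and 1 lower. In the fit without both 12 h libraries 3 were higher and 1 lower at 6 h, against 10.4% and 10.3% of all genes. In that fit 4 were higher and 4 lower at 48 h, against 26.4% and 27.9% of all genes, counts near those shares. *HIF1A* mRNA, named after its values were seen, averaged 418 ± 6.75 CPM at 48 h and 396 ± 21.4 CPM at 0 h (± SD, n = 2 each) and did not pass at any time.

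Further hypoxia-inducible genes, 35 tested of 36 listed, showed a late count in the same direction as the 14 members. At 48 h 23 were higher and 2 lower, beside 16% and 16.3% of all genes, with a median log2 fold change of 0.84. At 6 h 2 were higher, *DDIT4* (log2 fold change 2.72, SE 0.20, adjusted p = 0.000128) and *PPP1R3C* (0.65, SE 0.14, adjusted p = 0.0405), and 1 was lower, *GBE1* (−0.45, SE 0.10, adjusted p = 0.0426), with a median of −0.10. DESeq2 gave 4 higher and 3 lower at 6 h. With both 12 h libraries left out 7 were higher and 10 lower at 6 h, against 10.4% and 10.3% of all genes. At 48 h that fit gave 28 higher and 3 lower, against 26.4% and 27.9% of all genes. Among the higher genes at 48 h the smallest adjusted p-values belonged to *PGF*, a relative of *VEGFA* (2.32, SE 0.16, adjusted p = 8.16e-06), *CCNG2*, an unusual cyclin of resting cells (1.68, SE 0.11, adjusted p = 8.37e-06), and *DDIT4*, an mTORC1 inhibitor (2.15, SE 0.19, adjusted p = 3.63e-05). *HIGD1A*, which encodes a mitochondrial inner membrane protein, was 1 of the 2 lower genes at 48 h (−0.44, SE 0.13, adjusted p = 0.0238). Against 6 h, 25 of the 35 were higher and 3 lower at 48 h, beside 16.2% and 17% of all genes.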

How the data were processed

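RNA of MDA-MB-231 cells was sequenced in 10 libraries, 2 replicates at each of 5 times of dasatinib. The dose was taken from the paper that reported the libraries. The authors deposited raw counts per gene, which by the submitters' processing notes came from reads handled with FastQC, MultiQC and Trim Galore, aligned with STAR 2.5.2b to hg38 and counted with featureCounts. The authors also deposited TPM values, and the step from counts to TPM, the annotation release and the strand setting are not given in the sources used here.

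Counts were tested with edgeR 4.0.16 in R 4.3.3 (quasi-likelihood test, robust dispersion, TMM scaling, filterByExpr with a minimum count of 10) in 1 fit of all 10 libraries with a mean per time. P-values were Benjamini-Hochberg adjusted over 15727 genes at a threshold of 0.05. The SE was the log2 fold change divided by the square root of F. The procedure was tested on simulated data with known changes. The p-values measure the spread between 2 libraries of a time, and it was not stated whether replicates were separate cultures. CPM were TMM-scaled, and TPM served to compare genes by level.

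As alternatives, the low-count filter was dropped, TMM was exchanged for DESeq2-type size factors, and the test was run with DESeq2 1.42.0. Further fits used the 2 groups alone, no 12 h libraries, the replicate number as a block, leaving out each library, and limma 3.58.1 on log2(TPM + 1) or log2(TPM + 0.1) with at least 1 TPM in 2 libraries or no filter. The 34 genes and all other lists were chosen with earlier results of these data known. Values of every library were given for members that passed at 6 h, passed at 48 h with an absolute log2 fold change of at least 1, or had opposite signs at 6 and 48 h with a call between these times. From each further list, the genes named were those of smallest adjusted p at 6 h and 48 h, at most 3 in each direction. Promoter windows were those of RefSeq (GRCh38.p14). Results of some listed genes are not reported here.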

Additional observations from a re-analysis of the deposited data

Results flagged for a closer look

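The effect of 48 h of dasatinib differed from the effect of 6 h in 21 of the 34 genes. The test was edgeR's, of the 48 h against the 6 h libraries (adjusted p under 0.05), and each value here is that log2 difference. Of the 21, 19 were higher and 2 lower at 48 h, beside 16.2% and 17% of all genes. Among the hypoxia-inducible genes the differences were 0.79 for *EGLN3*, 0.73 for *KDM3A*, 1.17 for *KDM4B*, 1.79 for *CA9*, −0.40 for *CA12*, 1.19 for *ADM*, 1.53 for *VEGFA* and −0.33 for *STC1*. They were 1.37 for *ANGPTL4*, 1.35 for *BNIP3*, 1.56 for *BNIP3L* and 2.69 for *NDRG1*. Among the transporters and switches the differences were 0.40 for *SLC2A1*, 0.80 for *PFKFB4* and 1.28 for *PDK1*. Among the enzymes they were 0.98 for *HK2*, 0.71 for *PFKL*, 1.78 for *ALDOC*, 0.72 for *PGK1*, 0.97 for *ENO2* and 0.48 for *LDHA*. At 48 h *HK2* had 94.1 and 83.2 CPM, below the 99.5 and 99.1 CPM at 0 h.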

How the results depend on the processing

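No log2 fold change of the 34 genes that passed at 6 h, at 48 h or at 48 h against 6 h changed sign in 19 alternatives (single genes at 12 and 24 h were not followed). Without both 12 h libraries, 8 members were higher and 7 lower at 6 h (3 and 2 with all libraries), 5 lower at 24 h (2) and 2 lower at 48 h (0). In that fit 10.4% of all genes were higher and 10.3% lower at 6 h, 22.3% lower at 24 h and 27.9% lower at 48 h. With the 2 groups alone, 6 were higher and 6 lower at 6 h, 0 higher and 0 lower at 12 h (5 and 1), 5 lower at 24 h and 3 lower at 48 h. At 12 h the lower count was 5 with no filter on low counts and 4 with DESeq2, where 2335 and 1965 of all genes passed. At 24 h it was 1 with limma on log2 TPM under each pseudocount and filter. At 48 h against 6 h the lower count (2) was 0 with no filter and 0 with limma on log2 TPM, where edgeR gave 2 and limma 1 at an unadjusted p under 0.05, and it was 1 with size factors of the DESeq2 type and 1 with DESeq2. With the replicate block 1 member was lower at 6 h, 2 were lower at 12 h, 1 was lower at 24 h and 1 was lower at 48 h against 6 h. Deviations of same-numbered libraries correlated between times by −0.15 to 0.22, so the numbers were not read as pairs. Leaving out 1 library, whose partner was then assumed to vary like the other groups, gave 1 to 8 higher and 1 to 7 lower at 6 h, 1 to 9 and 1 to 13 at 12 h, 9 to 18 and 1 to 5 at 24 h, 15 to 21 and 0 to 2 at 48 h, and 14 to 22 and 0 to 3 at 48 h against 6 h. The highest counts came without a 12 h library, and the number of all genes called also differed between these fits. The 6 h higher count was 1 without 0 h replicate 1, 0 h replicate 2 or 6 h replicate 1. At 6 h *STC1* and *HK2* passed in 19 of 19 alternatives, and at 48 h each of the 17 did except *PGK1* (15) and *ENO2* (18, adjusted p up to 0.0658). With 2 libraries per time, a gene that did not pass is not shown to be unchanged. No scaling moved the median of all genes by more than 0.09 on the log2 scale. The cause of these shifts was not tested.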

Other observations

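In pathways that branch from glycolysis, genes passed in both directions at 48 h against 0 h (edgeR, adjusted p over all genes tested), and their shares may be read beside the 16% higher and 16.3% lower of all genes. Of 7 genes of the pentose phosphate pathway, 1 was higher and 2 were lower. Without both 12 h libraries 2 were higher and 2 lower, against 26.4% and 27.9% of all genes in that fit. With all libraries the lower genes were *RPIA* (log2 fold change −1.14, adjusted p = 0.00294) and *TALDO1* (log2 fold change −0.70, adjusted p = 0.0102), both of the non-oxidative branch. At 6 h *RPE*, also of that branch, was the 1 gene of the 7 that passed (log2 fold change −0.65, adjusted p = 0.0138).

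Of 16 genes that handle pyruvate and lactate, 3 were higher and 4 lower at 48 h, beside 16% and 16.3% of all genes. Without both 12 h libraries 6 were higher and 7 lower, against 26.4% and 27.9% of all genes. With all libraries the higher genes were the pyruvate dehydrogenase kinases *PDK4* (log2 fold change 2.16, adjusted p = 0.000222) and *PDK3* (1.15, adjusted p = 0.000228) and *BSG*, a chaperone of lactate transporters (1.00, adjusted p = 0.0173). The lower genes were *DLAT* (−0.39, adjusted p = 0.0153), *SLC16A7* (−0.75, adjusted p = 0.0207), *PDHX* (−0.40, adjusted p = 0.0243) and *DLD* (−0.39, adjusted p = 0.0253, named after its values were seen), of which *SLC16A7* encodes a monocarboxylate transporter and the others encode parts of the pyruvate dehydrogenase complex. At 6 h 0 of the 16 passed with edgeR, where 0 were higher and 3 lower at an unadjusted p under 0.05, and 0 passed with DESeq2. Leaving out both 12 h libraries gave 0 higher and 3 lower at 6 h, against 10.4% and 10.3% of all genes.

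Of 17 further genes, glycolytic isozymes and related enzymes such as *PGM1*, 10 were tested. At 48 h *PGM1* (0.85, adjusted p = 0.00042) and *PFKFB2* (0.55, adjusted p = 0.0243) were higher and *LDHB* (−0.73, adjusted p = 0.00536) was lower on the log2 scale. Of all genes 16% were higher and 16.3% lower. At 6 h 0 of the 10 passed with edgeR, where 1 was higher and 1 lower at an unadjusted p under 0.05, and 0 passed with DESeq2. Leaving out both 12 h libraries gave 3 higher and 1 lower at 6 h, against 10.4% and 10.3% of all genes. It gave 3 and 3 at 48 h, against 26.4% and 27.9%.

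Of 4 glucose-responsive genes, *TXNIP*, an inhibitor of thioredoxin and of glucose uptake, was the 1 that passed at 6 h and at 48 h. It averaged 213 ± 10.1 CPM at 6 h and 179 ± 9.56 CPM at 48 h, against 84.2 ± 0.476 CPM at 0 h (± SD, n = 2 each). *TXNIP* had a log2 fold change of 1.34 (adjusted p = 0.000205) at 6 h and 1.09 (adjusted p = 5.24e-05) at 48 h, with lower values of 0.27 and 0.39 at 12 and 24 h.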
